A study of Mus musculus with 35 samples.

Results

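The comparison described here set the effect of losing Flcn in the mouse kidney beside the effect of losing Flcn together with Tfeb, each against the controls of its own cross. It was made on the 17 libraries, of 35 in the whole series, that have a table of raw read counts per gene for each library. RNA came from whole kidneys of C57BL/6 mice at postnatal day 2. Flcn KO kidneys were Flcn flox/flox; Ksp-cre+ (n = 5), and Flcn/Tfeb DKO kidneys (n = 4) also carried Tfeb flox/flox, again with Ksp-cre+. Their controls are labelled control Flcn (n = 5) and control Flcn/Tfeb (n = 3). The study gives Flcn flox/flox as the genotype of its controls, and whether that holds for the control Flcn/Tfeb libraries too is not given in the sources used here. In these mice Cre is made under the promoter of cadherin 16 (Ksp), which is active in the thick ascending limb, the distal tubule and the collecting duct. Whole-kidney RNA therefore mixes cells in which recombination was driven with cells in which it was not. The comparison asks which changes of Flcn loss need Tfeb and which do not. It is the difference of 2 effects, the Flcn KO effect minus the Flcn/Tfeb DKO effect, computed for every expressed gene. Both are log2 fold changes from 1 fit, so that a positive difference means a higher effect in Flcn KO.

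Folliculin, the product of Flcn, is a GTPase-activating protein for the lysosomal GTPases RagC and RagD. It lets the growth-controlling kinase complex mTORC1 phosphorylate TFEB and TFE3 at the lysosome, which holds these transcription factors in the cytoplasm. When folliculin is lost they enter the nucleus and bind E-box-like CLEAR motifs near genes for lysosomal enzymes, the vacuolar proton pump, autophagy and the Rag GTPases themselves. Inherited FLCN mutations cause Birt-Hogg-Dubé syndrome, with kidney cysts and tumours. TFE3 recognises the same motifs and remains intact in Flcn/Tfeb DKO kidneys.

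The libraries held 1652649 to 3564751 reads on genes, and 13049 genes had enough reads to be tested. Of these 17 libraries, 3 stood apart: control Flcn replicates 4 and 5 and control Flcn/Tfeb replicate 3. In them 9.06% to 10.96% of reads lay on no gene, against 12.91% to 19.91% in the other libraries, and mitochondrial transcripts took 4.474% to 4.934% of counts, against 7.325% to 11.883%. As 1 of only 3 controls in its cross, control Flcn/Tfeb replicate 3 bears on every Flcn/Tfeb DKO effect, and values without it are given beside the results it moves most. Control Flcn replicates 4 and 5, among 5 controls in their cross, bear in the same way on every Flcn KO effect. Xist, the transcript of the inactive X chromosome of female cells, was at 290.09 CPM (counts per 1000000 reads on genes) or more in control Flcn 4, Flcn KO 2, control Flcn/Tfeb 2 and 3, and Flcn/Tfeb DKO 1, 2 and 4, and at most 0.70 CPM in the rest. With Xist as a covariate the difference was called for 2 genes, as without it.

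The targeted genes were looked at first. Flcn was at 11.7, 16.1, 12.1, 16.2 and 12.5 CPM in control Flcn and at 16.2, 10.2, 13.5, 18.4 and 16.2 CPM in Flcn KO. It was at 11.6, 10.3 and 15.9 CPM in control Flcn/Tfeb and at 12.4, 16.5, 16.1 and 10.7 CPM in Flcn/Tfeb DKO. The groups overlapped in both crosses. The reads lie near the 3′ ends of transcripts, a part that deletion of an internal stretch can leave in place, so the Flcn level checks no label. Tfeb was at 9.25, 6.88 and 19.3 CPM in control Flcn/Tfeb and at 7.76, 6.36, 7.47 and 7.66 CPM in Flcn/Tfeb DKO, which also overlap, and its Flcn/Tfeb DKO effect of −0.75 had an unadjusted p of 0.028. Without control Flcn/Tfeb replicate 3, the library at 19.3 CPM, the Tfeb effect was −0.12 (unadjusted p = 0.73). In Flcn KO the Tfeb effect was −0.16. Tfe3, the closest relative of Tfeb among these factors, had an effect of −0.04 in Flcn KO and −0.14 in Flcn/Tfeb DKO.

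The 2 effects differed for 2 genes, Slc16a7 and Sostdc1, at an adjusted p under 0.05 in edgeR's quasi-likelihood test, which is 0.0153% of the genes tested. For both, Flcn KO kidneys were above their controls, and Flcn/Tfeb DKO kidneys were not. Slc16a7 encodes MCT2, a plasma membrane carrier of lactate, pyruvate and ketone bodies. Sostdc1 encodes a secreted antagonist of BMP signalling that is made in distal parts of the nephron. No gene was called in the opposite direction by edgeR's quasi-likelihood test, by its likelihood ratio test or by DESeq2. At an unadjusted p under 0.05 the difference was positive for 484 genes (3.71%) and negative for 292 genes (2.24%).

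Slc16a7, on mouse chromosome 10 (chr10:125219270-125389465, minus strand, mm10), was at 42.1, 34.1, 26.8, 34.5 and 40.4 CPM in control Flcn and at 102, 73.4, 81.2, 107 and 77.6 CPM in Flcn KO. It was at 32.4, 28.1 and 38.7 CPM in control Flcn/Tfeb and at 29.9, 22.3, 27.6 and 19.5 CPM in Flcn/Tfeb DKO. Every Flcn KO library was above every other library, and Flcn/Tfeb DKO overlapped its controls at their lower end. The Flcn KO effect was 1.30 ± 0.16 (SE), the Flcn/Tfeb DKO effect −0.42, and the difference 1.72 (95% interval 1.19 to 2.25, adjusted p = 0.009). Without Flcn/Tfeb DKO replicate 4 the difference was 1.61 and its adjusted p 0.051, and without the 3 libraries that stood apart these were 1.60 and 0.074.

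Sostdc1, on chromosome 12 (chr12:36314139-36318452, plus strand), was at 341, 370, 391, 321 and 335 CPM in control Flcn and at 580, 608, 577, 600 and 560 CPM in Flcn KO. In the other cross it was at 354, 307 and 387 CPM in the controls and at 283, 260, 279 and 259 CPM in Flcn/Tfeb DKO. Flcn KO was above its controls in every library, whereas Flcn/Tfeb DKO was below its own in every library. The Flcn KO effect was 0.73 ± 0.11 (SE), the Flcn/Tfeb DKO effect −0.37 (unadjusted p = 0.0084), and the difference 1.11 (95% interval 0.76 to 1.45, adjusted p = 0.009). Without Flcn/Tfeb DKO replicate 4 the difference was 1.08 and its adjusted p 0.051.

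**Figure D1:**
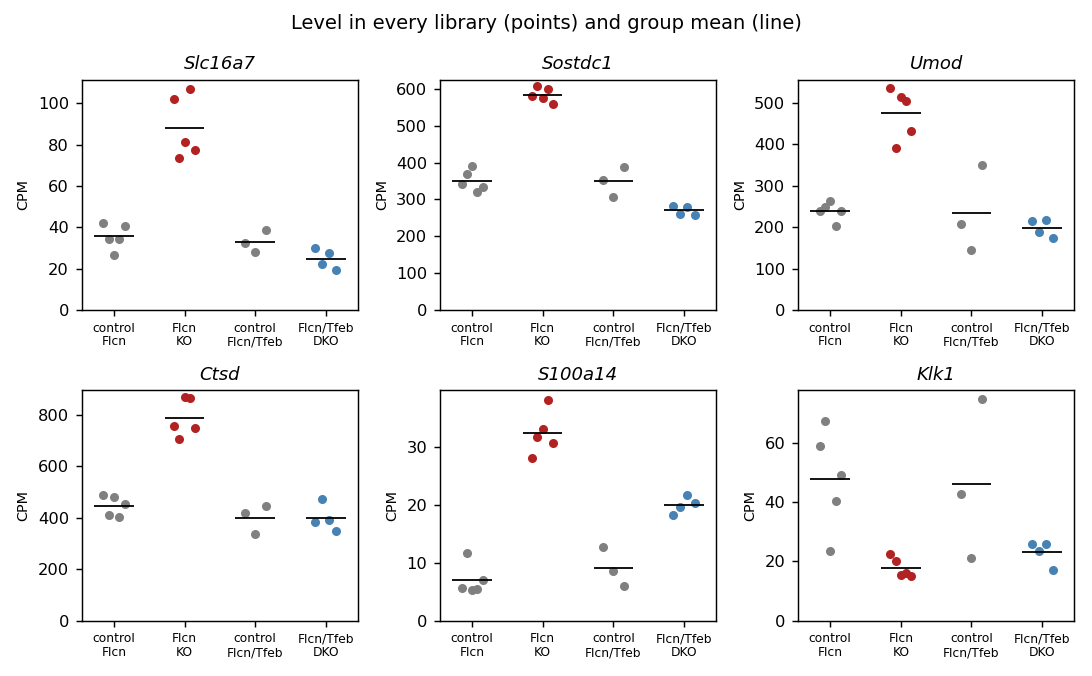
Level in CPM (vertical axes, from 0) of 6 genes in every library of the 4 groups, each point 1 library and each line a group mean. Slc16a7, Sostdc1, Umod and Ctsd stood higher in Flcn KO than in the other groups, S100a14 was higher in both mutant groups than in their controls, and Klk1 was low in both mutant groups but its control Flcn/Tfeb levels spread from 21.2 to 74.8 CPM.

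The differences of the genes next in the order of p missed the threshold, with adjusted p between 0.16 and 0.38 in edgeR's quasi-likelihood test. All but Cyp4a31 and Serpinb9 among them were called as higher in Flcn KO. Serpinb9 stood higher without being called, at 12.6 to 24.7 CPM in control Flcn and 27.2 to 34.8 CPM in Flcn KO. Cyp4a31 had a difference of 2.96 with an effect of −0.21 in Flcn KO and of −3.18 in Flcn/Tfeb DKO. Atp12a, the catalytic subunit of the non-gastric proton-potassium pump, had a difference of 1.38 (SE 0.26). Tspo, a cholesterol- and porphyrin-binding protein of the outer mitochondrial membrane, had one of 0.97, and Mfsd4a, a membrane transporter of the major facilitator family, one of 1.27. Umod, which encodes uromodulin, the main protein of urine and a product of the thick ascending limb, had one of 1.25. Cldn4, a tight junction claudin of the collecting duct, had one of 1.15, Serpinb9, an inhibitor of granzyme B, one of 1.19, and Car12, a membrane-bound carbonic anhydrase, one of 0.80. DESeq2 called 8 genes in this direction: Slc16a7, Sostdc1, Atp12a, Umod, Tspo, Mfsd4a, Cyp4a31 and Ctsd.

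Flcn loss alone changed few genes in whole kidneys at this depth. In Flcn KO, 39 genes rose (0.299% of those tested) and 4 fell (0.0307%). These 43 genes were chosen by the contrast of the Flcn cross. The Flcn/Tfeb libraries are not compared in it, but they share the filter, the scaling and the estimate of spread of the fit. Which genes passed therefore depended in part on them. Without control Flcn/Tfeb replicate 3, 75 genes rose and 10 fell, and with each cross fitted alone 54 rose and 8 fell. Their Flcn/Tfeb DKO effects were not what they were chosen for. A p for the difference cannot be read as independent, since the difference contains the effect they were chosen for. Effects that pass a threshold also tend to be overestimated, which lowers any ratio to them.

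**Figure D2:**
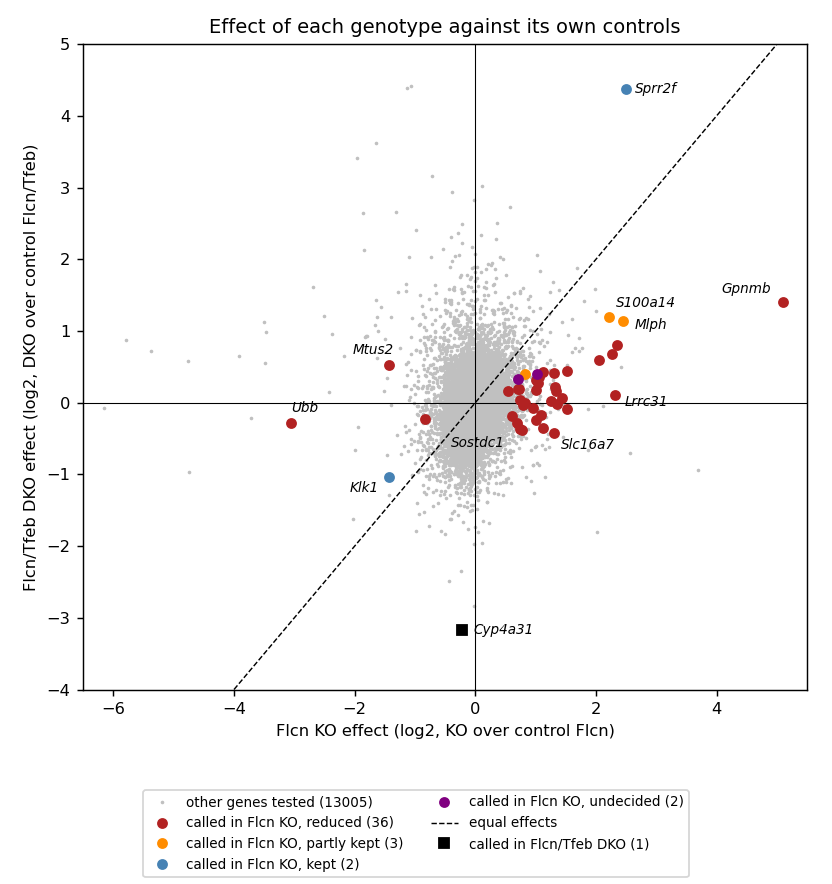
Flcn KO effect (horizontal) against Flcn/Tfeb DKO effect (vertical), both log2 fold changes over the controls of the same cross, for the 13049 genes tested, with the 43 genes called in Flcn KO coloured by class and the dashed line marking equal effects. The 39 genes that rose in Flcn KO lie below the dashed line except Sprr2f, with a median Flcn/Tfeb DKO effect of 0.18.

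Where Tfeb was lost as well, most of the rise was not seen. The 39 genes had a median Flcn KO effect of 1.09 and a median Flcn/Tfeb DKO effect of 0.18, beside −0.019 over all genes tested, and the median ratio of one effect to the other was 17.8%. The Flcn/Tfeb DKO effect was above 0 for 26 of them and below 0 for 13, against 47.7% and 52.3% of all genes. It lay above 0 at an unadjusted p under 0.05 for 4 genes, S100a14, Fstl3, Mlph and Sprr2f, where 3.08% of all genes did, and below 0 at such a p for 2, Slc16a7 and Sostdc1, where 6.96% did. A 95% interval could be computed for 38 of the 39 genes, and 34 of these held 0, as did 90.3% of the intervals over all genes. Of the 39 genes, 38 had a positive difference. All Flcn KO libraries were above all their controls for 38 of the 39, beside 1.65% of all genes, a count from which nothing is read since the genes were chosen on that contrast. All Flcn/Tfeb DKO libraries were above all their controls for 6 (2.7% of all genes) and below them for 2 (2.94% of all genes). Libraries without control Flcn/Tfeb replicate 3 gave a median Flcn/Tfeb DKO effect of 0.21 over the same 39 genes, with 29 above 0 and 8 at an unadjusted p under 0.05.

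The per-library average of these 39 genes, in log2 CPM less the average of that cross's controls, is given for each library. Since the genes were chosen for their level in Flcn KO, its Flcn KO values, and with them the gap to Flcn/Tfeb DKO, are partly set by that choice. It was 1.23, 1.17, 1.32, 1.38 and 1.13 in Flcn KO and 0.28, 0.28, 0.20 and 0.10 in Flcn/Tfeb DKO. In the controls it ran from −0.079 to 0.053 in the Flcn cross and from −0.082 to 0.087 in the Flcn/Tfeb cross. All Flcn/Tfeb DKO libraries stood above their own controls by this measure, 1 of them narrowly.

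**Figure D3:**
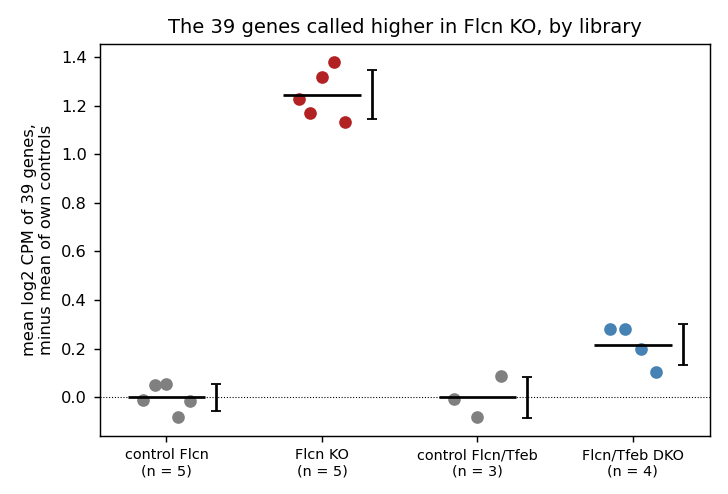
Mean log2 CPM of the 39 genes that rose in Flcn KO, less the average of that cross's controls (vertical axis), in each of 17 libraries, with the group mean (line) and SD (bar to the right). Flcn KO libraries sit between 1.134 and 1.38 and Flcn/Tfeb DKO libraries between 0.103 and 0.281, just above controls that reach 0.087.

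Each of the 43 genes was placed in a class from unadjusted p values under 0.05, as a description of what these libraries can tell apart. A change was reduced if the effects differed and the Flcn/Tfeb DKO effect was not itself below that p in the same direction, partly kept if both held, kept if only the Flcn/Tfeb DKO effect did, and undecided if neither did. Of the 39 genes that rose, 33 were reduced, 3 partly kept (S100a14, Fstl3 and Mlph), 1 kept (Sprr2f) and 2 undecided (Atp6v0d2 and Pycard). Of the 4 that fell, 3 were reduced (Mtus2, Pck1 and Ubb) and 1 kept (Klk1). When control Flcn/Tfeb replicate 3 was left out, the same 43 genes divided into 29 reduced, 3 partly kept, 5 kept and 6 undecided. Some reduced genes were low in control Flcn 4 and 5. Atp6v1g3 was at 76.4 and 75.8 CPM there, against 140, 126 and 138 CPM in the other control Flcn libraries. S100a1 was at 229 and 241 CPM, against 417, 341 and 391 CPM. In Flcn KO they were at 234 to 320 CPM and 511 to 588 CPM.

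**Figure D4:**
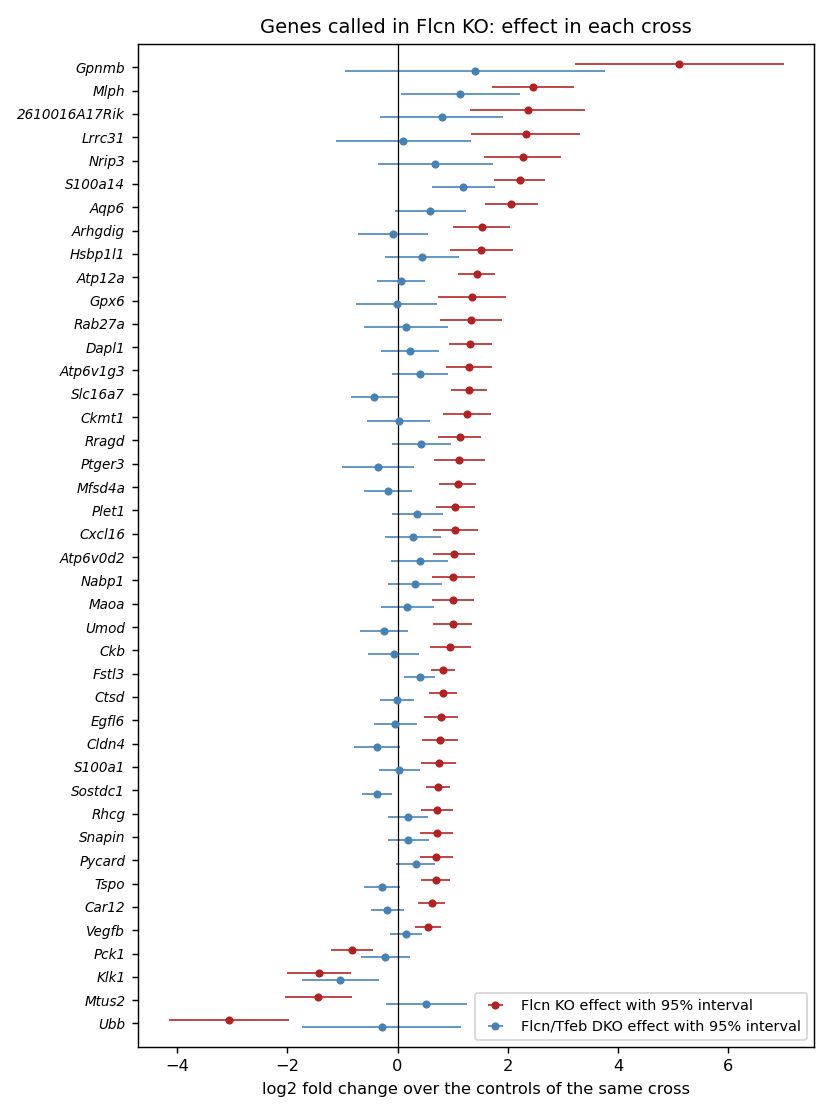
Flcn KO effect (red) and Flcn/Tfeb DKO effect (blue), as log2 fold changes over the controls of the same cross with 95% intervals (horizontal axis), for 42 genes called in Flcn KO, ordered by the Flcn KO effect; Sprr2f, which has no interval, is left out. The blue point lies to the left of the red point for all 38 genes drawn that rose, genes chosen for their red values, and 34 of their blue intervals hold 0, a share like that over all genes (90.3%).

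Among the reduced genes was Ctsd, which encodes cathepsin D, a lysosomal aspartic protease. It was at 489, 410, 479, 403 and 451 CPM in control Flcn and at 754, 705, 867, 866 and 747 CPM in Flcn KO. In the other cross it was at 417, 336 and 445 CPM in the controls and at 381, 471, 389 and 348 CPM in Flcn/Tfeb DKO, so that the groups overlapped there while those of the Flcn cross did not. Its Flcn KO effect was 0.82 ± 0.12 (SE), and its Flcn/Tfeb DKO effect was −0.01 (95% interval −0.32 to 0.30).

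Umod was at 238, 249, 263, 202 and 240 CPM in control Flcn and at 537, 392, 516, 504 and 432 CPM in Flcn KO. It was at 208, 146 and 350 CPM in control Flcn/Tfeb and at 216, 189, 217 and 173 CPM in Flcn/Tfeb DKO. All Flcn KO libraries were above every other library. Its effects were 0.999 in Flcn KO and −0.25 in Flcn/Tfeb DKO, and the difference of 1.25 became 0.82 without control Flcn/Tfeb replicate 3, where the control level of 350 CPM is found.

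Several reduced genes serve acid secretion in intercalated cells, the proton- and bicarbonate-transporting cells of the collecting duct. Aqp6, an intracellular aquaporin of these cells, was at 11.3 to 31.4 CPM in control Flcn with a median of 22.7, and at 101, 80.8, 96.5, 106 and 68.1 CPM in Flcn KO. It was at 8.68, 19.5 and 23.6 CPM in control Flcn/Tfeb and at 26, 28.6, 28.4 and 25.3 CPM in Flcn/Tfeb DKO. The Flcn/Tfeb DKO libraries were above their controls without overlap, at less than the lowest Flcn KO level, and the Flcn/Tfeb DKO effect was 0.60 beside 2.06 in Flcn KO, or 0.94 (unadjusted p = 0.015) without control Flcn/Tfeb replicate 3. Atp12a was at 85.7, 54.7, 67.4, 76.8 and 62 CPM in Flcn KO, against 19.7 to 34.1 CPM in the other 12 libraries, with effects of 1.44 in Flcn KO and 0.06 in Flcn/Tfeb DKO.

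The 17 markers of intercalated cells were described as a group. In Flcn KO 6 of them rose (Atp6v1g3, Atp6v0d2, Aqp6, Rhcg, Car12 and Atp12a) and none fell, where 0.299% of all genes rose and 0.0307% fell. The median effect of the 17 was 0.68 in Flcn KO and 0.06 in Flcn/Tfeb DKO, beside −0.0091 and −0.019 over all genes. The difference was positive for 15 of the 17 and had an unadjusted p under 0.05 in that direction for 8, beside 3.71% of all genes. The summed level of the markers was 698 to 765 CPM in control Flcn and 1090 to 1170 CPM in Flcn KO, but 613 to 861 CPM in control Flcn/Tfeb and 632 to 719 CPM in Flcn/Tfeb DKO. Flcn KO did not overlap its controls, and Flcn/Tfeb DKO lay within the range of its own. In whole-kidney RNA, more cells of a type and more RNA per cell cannot be told apart.

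The members of this list did not all move alike. Foxi1, the transcription factor that specifies intercalated cells, and Rhbg, an ammonia channel, are named here after their values were seen. Foxi1 had an effect of 0.84 in Flcn KO and −1.04 in Flcn/Tfeb DKO, and Rhbg one of 0.55 and −0.51, none of them past an adjusted p of 0.05. In the whole list, 2 genes were lower in Flcn/Tfeb DKO at an unadjusted p under 0.05 (6.96% of all genes) and 1 higher (3.08%). Without control Flcn/Tfeb replicate 3, 0 were lower and 2 higher. Atp6v1b1, the kidney form of a proton pump subunit, had effects of −0.02 and 0.06, and Slc26a4, the apical chloride-bicarbonate exchanger pendrin, effects of −0.22 and −0.26. The median Flcn/Tfeb DKO effect of the list was 0.21 without control Flcn/Tfeb replicate 3, with 13 of 17 differences positive and 5 at an unadjusted p under 0.05. In that setting Atp6v0d2, a proton pump subunit, had a Flcn/Tfeb DKO effect of 1.04, equal within error to its Flcn KO effect of 1.02, against 0.41 with all 17 libraries.

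Of the 10 markers of the thick ascending limb, 2 rose in Flcn KO (0.299% of all genes did), Umod and Ptger3, a prostaglandin E2 receptor. The difference was positive for 8, beside 53.3% of all genes, and for 5 its unadjusted p was under 0.05, beside 3.71%, which became 2 without control Flcn/Tfeb replicate 3. Slc12a1, the sodium-potassium-chloride cotransporter that defines this segment, had effects of 0.18 in Flcn KO and 0.01 in Flcn/Tfeb DKO. Among the 12 principal cell markers none was called in Flcn KO, with medians of 0.13 in Flcn KO and −0.10 in Flcn/Tfeb DKO, the latter 0.20 without control Flcn/Tfeb replicate 3. Cdh16, cadherin 16 itself, had effects of 0.05 in Flcn KO and −0.40 in Flcn/Tfeb DKO (unadjusted p = 0.027), and the latter was −0.18 without control Flcn/Tfeb replicate 3.

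The known targets of the MiT/TFE factors were taken by function. The Rag GTPase gene Rragd, whose product recruits mTORC1 to lysosomes, rose in Flcn KO. It was at 12.1 to 31.8 CPM in control Flcn with a median of 25.8, and at 52.9, 55.8, 55.7, 52.9 and 55 CPM in Flcn KO. It was at 15.6, 10.3 and 19.6 CPM in control Flcn/Tfeb and at 23.3, 22.9, 20.2 and 18.4 CPM in Flcn/Tfeb DKO, which overlap through the control at 19.6 CPM. Its effects were 1.13 and 0.43, and the latter was 0.71 (unadjusted p = 0.026) without that library, control Flcn/Tfeb replicate 3. Among the 8 Rag and Ragulator genes tested Rragd was the only 1 called in Flcn KO, where 39 of all 13049 genes rose. The medians of the 8 were 0.17 in Flcn KO and 0.004 in Flcn/Tfeb DKO.

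Of 55 lysosomal hydrolases and their activators, 1 rose in Flcn KO (Ctsd), where 39 of all 13049 genes did. The medians were 0.07 in Flcn KO and −0.11 in Flcn/Tfeb DKO. In Flcn/Tfeb DKO 9 of the 55 had a lower level at an unadjusted p under 0.05, beside 6.96% of all genes, which became 0 without control Flcn/Tfeb replicate 3. The difference was positive for 47 of the 55, beside 53.3% of all genes, and had an unadjusted p under 0.05 in that direction for 6, beside 3.71%. Examples are Hgsnat, an enzyme of heparan sulphate breakdown (difference 0.99, unadjusted p = 0.00054), Grn, the precursor of granulins (0.56), and Hexa, a hexosaminidase subunit (0.49), none of which passed the adjusted threshold. The difference was positive for 37 of the 55 without that control, and its median went from 0.32 to 0.19. Without all 3 libraries that stood apart it was positive for 34, with a median of 0.048.

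Of the 22 genes of the vacuolar proton pump, 2 rose in Flcn KO, where 0.299% of all genes did: Atp6v1g3 and Atp6v0d2, both of them subunit forms of intercalated cells. The medians were 0.22 in Flcn KO and 0.03 in Flcn/Tfeb DKO, and the difference had an unadjusted p under 0.05 in the positive direction for 3 (3.71% of all genes), Atp6v1g3, Atp6v1c2 and Atp6v0e. Of 39 genes of the lysosomal membrane and sorting none was called in Flcn KO, with medians of 0.22 and 0.08. The Flcn/Tfeb DKO median without control Flcn/Tfeb replicate 3 was 0.013 in that list and 0.095 in the proton pump list. Ap1m2, the epithelial form of the AP-1 adaptor subunit, had the smallest p of the difference among them, with effects of 0.67 and −0.26. Of 33 autophagy genes none was called in either cross. Their difference was above 0 for 17 of the 33, with a median of 0.025. It had an unadjusted p under 0.05 for 5 in the positive direction (3.71% of all genes) and for 1 in the negative (2.24%). Among the 5 was Optn, an autophagy receptor, with effects of 0.67 and −0.35, and the 1 was Rb1cc1, a subunit of the kinase complex that starts autophagy, with −0.17 and 0.19. With control Flcn/Tfeb replicate 3 left out these counts were 2 and 1, and the median difference was 0.10.

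Genes for melanosomes and lysosome-related organelles held 3 that rose in Flcn KO among 10 tested, where 0.299% of all genes did. Their difference had an unadjusted p under 0.05 for 4 in the positive direction and for 1, the small GTPase Rab32, in the negative. These counts became 2 and 0 without control Flcn/Tfeb replicate 3. The shares of all genes at such a p in each direction are those given above with the autophagy genes. Rab32 had effects of −0.41 and 0.55. Gpnmb, a transmembrane glycoprotein of these organelles, had at most 2 counts in any control Flcn library and was at 13.3, 9.92, 13.1, 15.4 and 6.66 CPM in Flcn KO. Against a floor of 3 counts per library that is at least 9.83-fold higher. In control Flcn/Tfeb it had at most 2 counts as well, and in Flcn/Tfeb DKO it was at 3.1, 1.27, 0.747 and 0 CPM. That mean lies below the floor of the controls, so no fold is given there. Mlph, the melanophilin that links Rab27a to a myosin motor, was at 0.468 to 3.15 CPM in control Flcn and at 11.4, 10.5, 12.7, 13.5 and 9.27 CPM in Flcn KO. It was at 1.74, 0.573 and 2.27 CPM in control Flcn/Tfeb and at 5.43, 3.18, 2.61 and 3.45 CPM in Flcn/Tfeb DKO, without overlap but far below Flcn KO. These are few reads, 3, 1 and 8 counts in control Flcn/Tfeb and 14, 5, 7 and 9 in Flcn/Tfeb DKO. The Flcn/Tfeb DKO effect of Mlph was 1.13, and 1.65 without control Flcn/Tfeb replicate 3, where the difference of 0.80 had an unadjusted p of 0.38. Rab27a itself, a GTPase of organelle transport, had effects of 1.34 and 0.16, the latter 0.45 without that control.

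The study marked 13 genes as bound in earlier chromatin immunoprecipitation data on TFEB, all of which had an unadjusted p under 0.05 for a higher level in Flcn KO, as 3.98% of all genes did; 4 of them passed the adjusted threshold, Gpnmb, Mlph, Rragd and Hsbp1l1. Since the study chose these genes on these samples, neither their Flcn KO effect, with a median of 0.97, nor the difference, which contains it, is independent evidence of direction. The study reports that the rise of the larger list holding them was lost with Tfeb. Whether that took part in choosing the genes is not known here. Their Flcn/Tfeb DKO effect, measured in the other cross, had a median of 0.32. It was above 0 at an unadjusted p under 0.05 for 2 of 13, Mlph and Gadd45g, beside 402 of all 13049 genes. Leaving out control Flcn/Tfeb replicate 3, the median Flcn/Tfeb DKO effect was 0.16, with 3 of 13 above 0 at such a p. Gadd45g, a growth arrest and DNA damage gene, had nearly equal effects of 0.56 and 0.51.

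Promoter sequences of the genes that rose were searched for the motif that TFEB and TFE3 recognise. RefSeq promoters on GRCm38.p6, each of 300 bases from 250 before to 50 after a gene start, were found for 32 of the 43 genes called in Flcn KO, and for neither Slc16a7 nor Sostdc1. The full CLEAR motif, which is TCACGTGA with G before and C after it, was searched on both strands and was in none of the 30 promoters of genes that rose, against 0.643% of promoters of all genes tested. Its core TCACGTGA was in 1 of 30 (3.33%, against 1.78%). The 7-base TCACGTG, which is part of both, was in 3 of 30 (10.0%, against 5.88%). The E-box CACGTG, which is part of all of these, was in 6 of 30 (20%, against 9.71%). The 3 promoters with TCACGTG are those of Ctsd, Aqp6 and Mlph, of which the first is shown for the 8-base core and the others for the 7-base motif. The 250 bases before the start are printed 5′ to 3′ on the gene's strand, with the longest match in capitals. They lie at chr7:142387828-142388077 (Ctsd, minus strand), chr15:99600950-99601199 (Aqp6, plus strand) and chr1:90914850-90915099 (Mlph, plus strand).
Ctsd: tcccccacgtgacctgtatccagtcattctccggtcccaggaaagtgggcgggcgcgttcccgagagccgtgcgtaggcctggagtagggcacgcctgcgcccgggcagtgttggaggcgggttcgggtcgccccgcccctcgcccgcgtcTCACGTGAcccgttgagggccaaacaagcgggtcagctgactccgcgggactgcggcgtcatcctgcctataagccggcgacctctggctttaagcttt
Aqp6: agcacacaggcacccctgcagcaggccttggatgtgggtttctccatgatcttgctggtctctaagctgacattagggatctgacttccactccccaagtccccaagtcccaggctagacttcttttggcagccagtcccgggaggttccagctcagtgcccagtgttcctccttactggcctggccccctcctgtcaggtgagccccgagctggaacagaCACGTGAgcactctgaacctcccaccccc
Mlph: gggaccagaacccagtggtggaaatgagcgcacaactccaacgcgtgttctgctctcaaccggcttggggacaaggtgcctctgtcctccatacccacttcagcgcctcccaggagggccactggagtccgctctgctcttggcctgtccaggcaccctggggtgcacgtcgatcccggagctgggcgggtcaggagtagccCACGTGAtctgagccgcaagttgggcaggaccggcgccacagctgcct
In Aqp6 and Mlph the match reads CACGTGA, which is TCACGTG on the opposite strand. The matches begin 99 bases before the start in Ctsd, 29 in Aqp6 and 48 in Mlph. A match is a description of letters and does not show that a factor binds there.

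**Figure D5:**
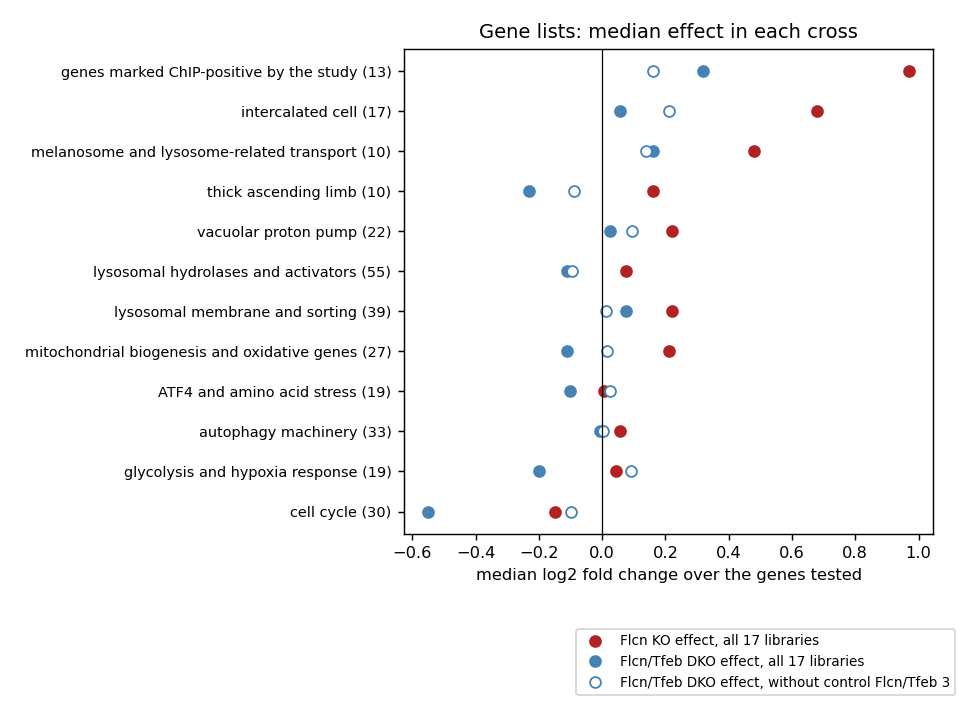
Median log2 fold change (horizontal axis) over the genes tested of 12 gene lists, with the number of genes in brackets, for the Flcn KO effect (red), the Flcn/Tfeb DKO effect with all 17 libraries (filled blue) and the same without control Flcn/Tfeb replicate 3 (open blue). Intercalated cell markers stood at 0.68 in Flcn KO and 0.06 or 0.21 in Flcn/Tfeb DKO, while the cell cycle list moved from −0.55 to −0.10 when that single control was left out.

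Changes that did not need Tfeb would appear in both crosses. When the larger of a gene's 2 p values was adjusted over all genes, no gene was called in both by edgeR's quasi-likelihood test, by its likelihood ratio test or by DESeq2. With each effect adjusted on its own, the likelihood ratio test called S100a14 in both crosses. The larger of the 2 unadjusted p values was under 0.05, with the same sign, for 25 genes on the higher side (0.192%) and 45 on the lower side (0.345%). S100a14, a small calcium-binding protein of epithelia, came first. It was at 5.62, 11.7, 5.25, 5.39 and 6.97 CPM in control Flcn and at 28.1, 31.7, 33.1, 38.1 and 30.7 CPM in Flcn KO. It was at 12.7, 8.6 and 5.97 CPM in control Flcn/Tfeb and at 18.2, 19.7, 21.7 and 20.3 CPM in Flcn/Tfeb DKO. Neither cross had overlapping groups, and the Flcn/Tfeb DKO effect was 1.19 (95% interval 0.62 to 1.76), below the 2.21 of Flcn KO. The difference of 1.02 had an unadjusted p of 0.0087.

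Fstl3, a secreted antagonist of activin and myostatin, was at 36.8 to 50.2 CPM in control Flcn and at 77.2, 81.3, 79, 75.6 and 74.4 CPM in Flcn KO. It was at 37, 39.5 and 40.4 CPM in control Flcn/Tfeb and at 46.9, 52.2, 54.5 and 52.9 CPM in Flcn/Tfeb DKO. Groups did not overlap in either cross, and the effects were 0.82 and 0.40.

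Klk1, which encodes tissue kallikrein of the connecting tubule, was the gene whose fall was classed as kept. It was at 59, 67.3, 23.6, 40.4 and 49.1 CPM in control Flcn and at 22.4, 20.1, 15.3, 16 and 15.1 CPM in Flcn KO. It was at 42.8, 21.2 and 74.8 CPM in control Flcn/Tfeb and at 26, 23.5, 25.8 and 17.2 CPM in Flcn/Tfeb DKO, which overlap. The effects were −1.43 and −1.04, the latter with an unadjusted p of 0.0047. Without control Flcn/Tfeb replicate 3, the library at 74.8 CPM, the Flcn/Tfeb DKO effect was −0.46 (unadjusted p = 0.17).

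Sprr2f, a small proline-rich epithelial protein, was classed as kept on very few reads. It had 16, 23, 15, 12 and 17 counts in Flcn KO and at most 5 in control Flcn. It had 4, 2, 3 and 0 counts in Flcn/Tfeb DKO and none in control Flcn/Tfeb, so its fitted Flcn/Tfeb DKO effect depends on the fit and no fold is given. Flrt1, a fibronectin-leucine-rich transmembrane protein, had effects of −0.55 and −0.64, and Stfa2l1, a stefin A family member, effects of 1.29 and 1.69. Neither was called in Flcn KO or in Flcn/Tfeb DKO.

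Like Klk1, the other 3 genes that fell in Flcn KO were not called in Flcn/Tfeb DKO. Pck1, the rate-limiting enzyme of gluconeogenesis, was at 144, 165, 145, 137 and 170 CPM in control Flcn and at 99.1, 79.6, 57.2, 83.6 and 110 CPM in Flcn KO. It was at 186, 143 and 278 CPM in control Flcn/Tfeb and at 189, 141, 152 and 214 CPM in Flcn/Tfeb DKO, which overlap, with effects of −0.83 and −0.22, the latter 0.091 without control Flcn/Tfeb replicate 3, the library at 278 CPM. Mtus2, a microtubule-associated protein, had effects of −1.44 and 0.52 and the smallest p of all negative differences (−1.96, adjusted p = 0.38). Ubb, a ubiquitin gene whose repeats are shared with other ubiquitin genes, was at 308, 352 and 365 CPM in control Flcn 1, 4 and 5 and at 24.2 and 35.2 CPM in control Flcn 2 and 3. It was at 14.9 to 44.4 CPM in the other 12 libraries, so its fall rests on 3 control libraries.

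The Flcn/Tfeb DKO effect taken alone gave 1 call in 13049 genes, a fall (0.00766%), and no rise. Cyp4a31, a fatty acid omega-hydroxylase, was at 1.74, 35 and 41.5 CPM in control Flcn/Tfeb and at 3.1, 2.55, 3.36 and 2.68 CPM in Flcn/Tfeb DKO. Control Flcn/Tfeb replicate 1 was thus below every Flcn/Tfeb DKO library. All 10 libraries of the Flcn cross lay between 39.3 and 59.4 CPM. The effect was −3.18 (adjusted p = 0.049) with all libraries and −2.61 (adjusted p = 0.54) without control Flcn/Tfeb replicate 3. Leaving out any 1 library of the Flcn cross or of Flcn/Tfeb DKO also lost the call, with effects of −3.12 to −3.24 and adjusted p of 0.063 to 0.38. Without control Flcn/Tfeb replicate 1 the effect was −3.68 (adjusted p = 1.7e-09), and without replicate 2 it was −2.99 (adjusted p = 0.035). At an unadjusted p under 0.05 the Flcn/Tfeb DKO effect was positive for 402 genes (3.08%) and negative for 908 (6.96%). Without control Flcn/Tfeb replicate 3 these were 341 and 220, so that the excess of lower values went with that library and higher values then outnumbered lower ones. For a rise, DESeq2 called 0 genes and edgeR's likelihood ratio test 1, S100a14.

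The cell cycle genes show the same dependence. With all libraries 14 of 30 had a lower level in Flcn/Tfeb DKO at an unadjusted p under 0.05, beside 908 of all 13049 genes. Their median effect was −0.55. Examples are Ccna2, cyclin A2 (−1.26), and Cdk1, the mitotic kinase (−0.69). With that control Flcn/Tfeb replicate 3 left out none of the 30 did, and the median was −0.10. In Flcn KO none of the 30 had an unadjusted p under 0.05 in either direction, and the median was −0.15, which became 0.14 without the 3 libraries that stood apart, control Flcn 4 and 5 among them. Genes of glycolysis and the hypoxia response behaved alike, with a median Flcn/Tfeb DKO effect of −0.20 that became 0.09 without control Flcn/Tfeb replicate 3. Of these, 4 of 19 had a lower level at an unadjusted p under 0.05, beside 908 of all 13049 genes, and 0 did without that control.

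On the negative side of the difference, where the effect was lower in Flcn KO than in Flcn/Tfeb DKO, no gene passed the test. After Mtus2 the smallest p values were those of Harbi1, a transposase-derived protein (difference −1.47), Foxp2, a forkhead transcription factor (−1.63), and Pou2f2, a transcription factor of B cells (−2.0), with adjusted p between 0.52 and 0.62 in edgeR's quasi-likelihood test. Tnfrsf19, a member of the TNF receptor family, had effects of −0.76 and 0.30. It was at 14 to 19.7 CPM in control Flcn, at 8.01 to 11.4 CPM in Flcn KO, at 10.3 to 10.5 CPM in control Flcn/Tfeb and at 8.53 to 14.9 CPM in Flcn/Tfeb DKO.

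Actc1, the actin of heart and fetal skeletal muscle, was also among the first 10 on that side. It was at 2.33, 0.636, 11.6 and 0.766 CPM in Flcn/Tfeb DKO, against at most 1 count in any control Flcn/Tfeb library. The high level was that of Flcn/Tfeb DKO replicate 3, so no fold is given. The summed level of 7 skeletal muscle markers ranged from 17.5 to 386 CPM in Flcn/Tfeb DKO and from 10.4 to 61.7 CPM in its controls, and from 4.74 to 60.0 CPM in Flcn KO and 10.9 to 189 CPM in control Flcn, with none of the 7 at 0 in any group. Summed liver markers reached 4890 CPM in Flcn/Tfeb DKO and 2000 CPM at most in the other groups, and summed adrenal markers reached 248 CPM in Flcn/Tfeb DKO and 192 CPM in its controls, against 10.6 CPM at most in the Flcn cross. Their part in the negative differences was not tested.

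Precision set what could be seen. The median SE was 0.209 for the Flcn KO effect, 0.257 for the Flcn/Tfeb DKO effect and 0.332 for their difference, and 0.229 for the difference among 3678 genes at 50 CPM or more. Over all 13049 genes the 2 effects had a Pearson r of 0.139 and a Spearman rho of 0.231, and over the 3678 genes of higher level 0.359 and 0.374. These describe genes, which are not independent of each other, within 17 libraries. Compared with no controls at all, Flcn KO was above Flcn/Tfeb DKO for 936 genes and below it for 978, a comparison in which genotype and cross cannot be told apart, so each effect was read against its own controls.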

How the data were processed

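3′ end mRNA libraries (QuantSeq 3′) of whole kidneys were sequenced in single-end reads. Per the labels and the study's methods, the authors trimmed the reads (the methods name bbduk, the processing notes Trim Galore), aligned them to mm10 with STAR and counted them with HTSeq-count. The deposited values used here are raw counts per gene, with no normalization. The series' 2 tables of the authors' normalised values and comparisons were not used here. Of 31053 gene identifiers, 99.865% matched GENCODE M21.

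Rows that name no gene stayed out of library sizes. edgeR 4.0.16 (filterByExpr, TMM factors, quasi-likelihood F test, Benjamini-Hochberg adjustment over 13049 genes, called at adjusted p under 0.05) was fitted once to 17 libraries with a term per group. KO effect, DKO effect and their difference are contrasts of that fit. Intervals cover the spread between libraries of a group, which the labels call biological replicates. DESeq2 1.42.0 and other settings, each library left out in turn included, were alternatives. Scripts were tested on simulated data. No pair of libraries agreed within sampling noise (29 pairs, chi-square per degree of freedom 2.851 to 42.594). Floors are 3 counts per library and cover counting error only.

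Genes named are those called in a comparison, the first by p on each side and the first by p of each of 19 pathway lists, with 18 marker lists. The members and lists were chosen with earlier results of these data known.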

Additional observations from a re-analysis of the deposited data

Results flagged for a closer look

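Slc16a7 and Sostdc1 stand here because the Flcn KO effect and the Flcn/Tfeb DKO effect of each differed by a test of the difference itself, by 1.72 and 1.11 on the log2 scale (adjusted p = 0.009 for both in edgeR's quasi-likelihood test). Without the 3 libraries that stood apart the difference of Slc16a7 was 1.60 and its adjusted p 0.074. In all 5 Flcn KO libraries both genes were above every control. Among 153 sets of values (the genes called in either cross, the targeted genes and library measures, each within a group of 4 or 5), 5 held a library far from the others, where chance gives about 1 in 20. The 5 are therefore no more than chance gives. A constant number of genes was among the library measures and could yield no such library. Mitochondrial transcripts took 10.38% of counts in Flcn/Tfeb DKO 1, against 11.755% to 11.883% in the other 3. The gene 2610016A17Rik was at 1.47 CPM in control Flcn 4, against 0.448 to 0.581 CPM, and S100a14 was at 11.7 CPM in control Flcn 2, against 5.25 to 6.97 CPM. Sprr2f was at 0 CPM in control Flcn 1, where it had 0 counts, against 1.16 to 1.58 CPM. Tspo was at 65.9 CPM in Flcn KO 3, against 58.1 to 58.9 CPM.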

How the results depend on the processing

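With 17 libraries the difference was called for 2 genes, and 39 genes rose and 4 fell in Flcn KO. The median Flcn/Tfeb DKO effect of these 39 genes, where tested, lay between 0.12 and 0.26 in every other setting that gives one. With each cross fitted alone 33 of the 39 were tested. The difference, where a setting gives it, was positive for at least 35. Its median was 1.02 with all libraries, 0.82 without control Flcn/Tfeb replicate 3 and 0.78 without the 3 libraries that stood apart. Rises in Flcn/Tfeb DKO at an unadjusted p under 0.05 numbered 4, 8 and 9 in these 3 settings, beside 402, 341 and 394 of all genes. The count of calls moved more than the effects did. DESeq2 gave 8 positive differences, 71 rises and 9 falls in Flcn KO, 2 falls in Flcn/Tfeb DKO, and classes of 55 reduced, 5 kept and 17 undecided. edgeR's likelihood ratio test gave 7, 81 and 10, with 1 rise and 3 falls in Flcn/Tfeb DKO and 67 reduced, 4 kept and 16 undecided. The call of Cyp4a31 in Flcn/Tfeb DKO was lost (0 falls) with RLE factors and with a mean of at least 10 counts (1 kept). It was also lost with Xist as a covariate (4 undecided) and with each cross fitted alone (8 falls in Flcn KO). Its effect hardly moved, at −3.16 with RLE factors and −3.17 with a mean of at least 10 counts or with Xist. With no filter on low counts there were 5 kept and 5 undecided. At an adjusted p under 0.1 there were 64 rises and 7 falls in Flcn KO, 2 falls in Flcn/Tfeb DKO, 4 kept and 10 undecided.

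Whether replicate numbers pair the samples was not settled. Same-numbered libraries had deviations from their group means that correlated between −0.19 and 0.27, and pairs with different numbers were not compared. With the replicate block, 0 differences were called, while that of Slc16a7 was 1.62 (adjusted p = 0.18) and that of Sostdc1 1.08 (adjusted p = 0.53). The block gave 24 rises in Flcn KO, 0 falls in Flcn/Tfeb DKO, 20 reduced, 1 partly kept and 4 undecided. The median Flcn/Tfeb DKO effect was 0.31 over the genes then called. With the controls of both crosses pooled there were 59 positive and 12 negative differences, 62 rises in Flcn KO, 1 rise in Flcn/Tfeb DKO and 1 gene in both crosses, with 56 reduced, 6 partly kept, 4 kept and 0 undecided, and a median of 0.089. Flcn KO against Flcn/Tfeb DKO with no controls gave 936 and 978 calls, and the fitted difference of Sprr2f turned from −1.88 to 2.64, where the first is no measured size, since control Flcn/Tfeb had 0 counts of this gene and the value depends on the fit.

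After seeing the data, 2 settings were added. The share of reads on no gene as a covariate gave 10 positive differences, 99 rises and 13 falls in Flcn KO, 88 reduced, 7 kept and 13 undecided, and a median of 0.052. Without the 3 libraries with the fewest reads on no gene there was 1 difference (Sostdc1), with 11 falls in Flcn KO, 0 falls in Flcn/Tfeb DKO, 7 kept and 5 undecided. Leaving out each library in turn gave 0 to 3 positive differences, 26 to 75 rises and 1 to 10 falls in Flcn KO, and 0 to 1 rises and 0 to 11 falls in Flcn/Tfeb DKO. It gave 22 to 54 reduced, 1 to 4 partly kept, 0 to 6 kept and 1 to 23 undecided, and a median of 0.13 to 0.25. The 0 came without Flcn/Tfeb DKO replicate 4, the 75 and 10 when control Flcn/Tfeb 3 was left out, and the 11 when control Flcn/Tfeb 2 was. Except where stated, the causes were not tested. Of 3370 recomputed differences of named genes, 3248 kept their side of the threshold. Since only 2 genes were called with all libraries, most of these were uncalled values that stayed uncalled. The call was lost for 5 values and gained with the same sign for 116. Of 551 recomputed list medians 103 moved by more than the spread between libraries. With 3 controls and 4 Flcn/Tfeb DKO libraries, a Flcn/Tfeb DKO effect under about 0.5 is within the typical 95% interval.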

Other observations

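Genes of mitochondrial biogenesis and oxidative metabolism held 9 of 27 with a higher level in Flcn KO at an unadjusted p under 0.05, beside 3.98% of all genes. In Flcn/Tfeb DKO none had a higher level at such a p (3.08% of all genes) and 3 a lower one (6.96%). Their medians were 0.21 and −0.11, and the difference was positive for 22, beside 53.3% of all genes. Ckmt1, mitochondrial creatine kinase, was called in Flcn KO, with effects of 1.26 and 0.02, and so was Ckb, the cytosolic brain form, which is not in this list, with effects of 0.95 and −0.07. Esrrg, an orphan nuclear receptor of oxidative tissues, had effects of 0.58 and −0.35, and Ppargc1a, the coactivator PGC-1α, effects of 0.35 and −0.11, neither called. Without control Flcn/Tfeb replicate 3 the Flcn/Tfeb DKO effect of Ckb was 0.48 and that of Ckmt1 0.49, and the median difference of the list went from 0.40 to 0.19. In that setting the median Flcn/Tfeb DKO effect of the list was 0.016, and 1 gene had a lower level in Flcn/Tfeb DKO at an unadjusted p under 0.05.

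Among the 14 monocarboxylate transporter genes tested, Slc16a7 was the only 1 called in Flcn KO, where 39 of all 13049 genes rose. Bsg, the chaperone of these carriers, had effects of 0.15 and −0.31, and Slc16a4, an orphan member, effects of −0.09 and −0.59. Among 15 BMP ligands, antagonists and targets tested, Sostdc1 and Fstl3 were called in Flcn KO, where 39 of all 13049 genes rose. Gdf15, a stress-induced cytokine, had effects of 1.25 and 0.20 without being called.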
